A study of Mus musculus with 4 samples.

Results

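The genes described here are the subunits of the integrins that lymphocytes carry in the blood, the beta chains *Itgb1*, *Itgb2* and *Itgb7* and the alpha chains *Itga4*, *Itgal*, *Itgae*, *Itga1* and *Itgam*. They were taken by symbol from the deposited count tables, 8 genes of 27998 gene rows, and each of the 8 had a UMI (a unique molecular identifier, counted once per captured transcript) in the kept cells of every library. The tables come from droplet-based single-cell RNA sequencing of T cells purified from the blood of C57BL/6 mice, 6 to 8 weeks old at the start, 18 days after challenge with the mouse colon carcinoma line MC-38, so that every group, the untreated one included, bore a tumor. There was 1 library for each of 4 groups: no treatment (Untreated), antibody to PD-L1 on days 10, 13 and 17 (PDL1), agonistic antibody to OX40 with the TLR9 ligand CpG on day 7 (OX40), and both treatments on those days (PDOX). The series describes 4 blood samples from 4 mice, read here as 1 mouse per library, so mouse, library and treatment cannot be told apart, and no test of a treatment was possible.

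An integrin is a pair of an alpha and a beta chain that spans the membrane and binds ligands on vessel walls, matrix or other cells once signals from inside the cell have switched it to its active shape. *Itga4* pairs with *Itgb1* to bind VCAM-1 and fibronectin, and with *Itgb7* to bind MAdCAM-1 of gut venules. *Itgal* and *Itgb2* form LFA-1, the receptor for ICAM proteins with which lymphocytes arrest on vessels and hold target cells, while *Itgam* with *Itgb2* forms Mac-1 of myeloid and NK cells. *Itgae* with *Itgb7* binds E-cadherin of epithelia, and *Itga1* with *Itgb1* binds collagen; both alpha chains are known from T cells that stay in tissues.

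Of 5434 deposited barcodes, 5299 had at least 200 genes and were kept, 784 to 1559 per library. The deposited totals ran from 2392650 to 4969885 UMIs per library and the median kept cell held 1439 to 1627.5 UMIs. Cells were gated on UMIs of lineage genes, with no integrin among them, into 1851 CD8 T cells, 765 CD4 T cells, 59 NK cells, 132 B cells and 93 monocytes. The other 2399 cells met no gate, among them 1638 that had *Cd3* UMIs but none of *Cd4*, *Cd8a* or *Cd8b1*. CD8 and CD4 T cells were called naive from summed UMIs of a list of naive T cell genes that includes *Ccr7*, *Lef1* and *Tcf7*, or effector from those of *S100a4*, *S100a6*, *Lgals1*, *Anxa2* and *Ccl5*, and 165 of the 2616 gated T cells lay at or next to the boundary between these calls. Effector cells made up 9.35%, 13.5%, 31.3% and 57.1% of gated CD8 T cells in the Untreated, PDL1, OX40 and PDOX libraries, and 6.90%, 7.65%, 29.1% and 55.2% of CD4 T cells, where the untreated library held only 6 effector cells. There were 14 barcodes found in more than 1 library, and no doublets were removed.

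The count tables use mm10, and RefSeq places the genes on this build (GRCm38.p6). *Itgb1* spans chr8:128685654-128733579 and *Itga4* spans chr2:79255426-79333114. *Itgal* (chr7:127296139-127335137) and *Itgam* (chr7:128062640-128118491) lie on the same chromosome. *Itgb2* spans chr10:77530329-77565708, *Itgb7* chr15:102215994-102233405, *Itgae* chr11:73090505-73147449 and *Itga1* chr13:114958079-115101964. The tables list *Itgam* under a pair of Ensembl identifiers, ENSMUSG00000030786 with most of its UMIs and ENSMUSG00000108596. Levels below sum both rows and tests use the former.

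Levels are UMIs per 10000 UMIs of a class of cells in a library, counted over 27874 genes after 124 mitochondrial, ribosomal and hemoglobin genes were set aside. Summed over libraries, *Itgb1* was highest in effector CD4 T cells at 8.57 and came next in effector CD8 T cells (3.96), NK cells (2.55), monocytes (2.18), naive CD4 T cells (1.18), naive CD8 T cells (0.470) and B cells (0.445). Its ranges over libraries overlapped between each pair of neighbours in that order, but those of naive CD8 (0.253 to 0.630) and effector CD8 T cells (2.79 to 4.75) lay apart. *Itgb2* was highest in NK cells at 7.03, then in monocytes (4.87), effector CD4 (3.60), effector CD8 (3.26), naive CD4 (2.395), naive CD8 (1.39) and B cells (0.612), and the ranges of the monocytes and effector CD4 T cells and of the naive CD4 and naive CD8 T cells did not overlap. *Itgal* led in monocytes at 4.61 and was lowest in B cells at 0.389, whose range of 0.262 to 0.732 lay below that of naive CD8 T cells, 1.24 to 1.94. *Itgb7* led in effector CD4 (8.09) and naive CD4 T cells (6.31), with NK cells, monocytes and both CD8 classes between 3.85 and 4.48 and B cells at 1.84. *Itgae* stood at 0.710 in naive CD8 T cells, range 0.633 to 0.735, and at or below 0.195 in the other classes named here. Naive CD8 T cells did not overlap with the class next to them, effector CD4 T cells (0 to 0.406). In CD8 T cells called neither naive nor effector *Itgae* was at 0.963 on 8 UMIs, and in CD4 T cells with a *Foxp3* UMI at 0.482 on 2. For *Itga4* the order ran from effector CD4 T cells (4.25) to naive CD8 T cells (1.89), with overlap between all neighbours.

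**Figure D1:**
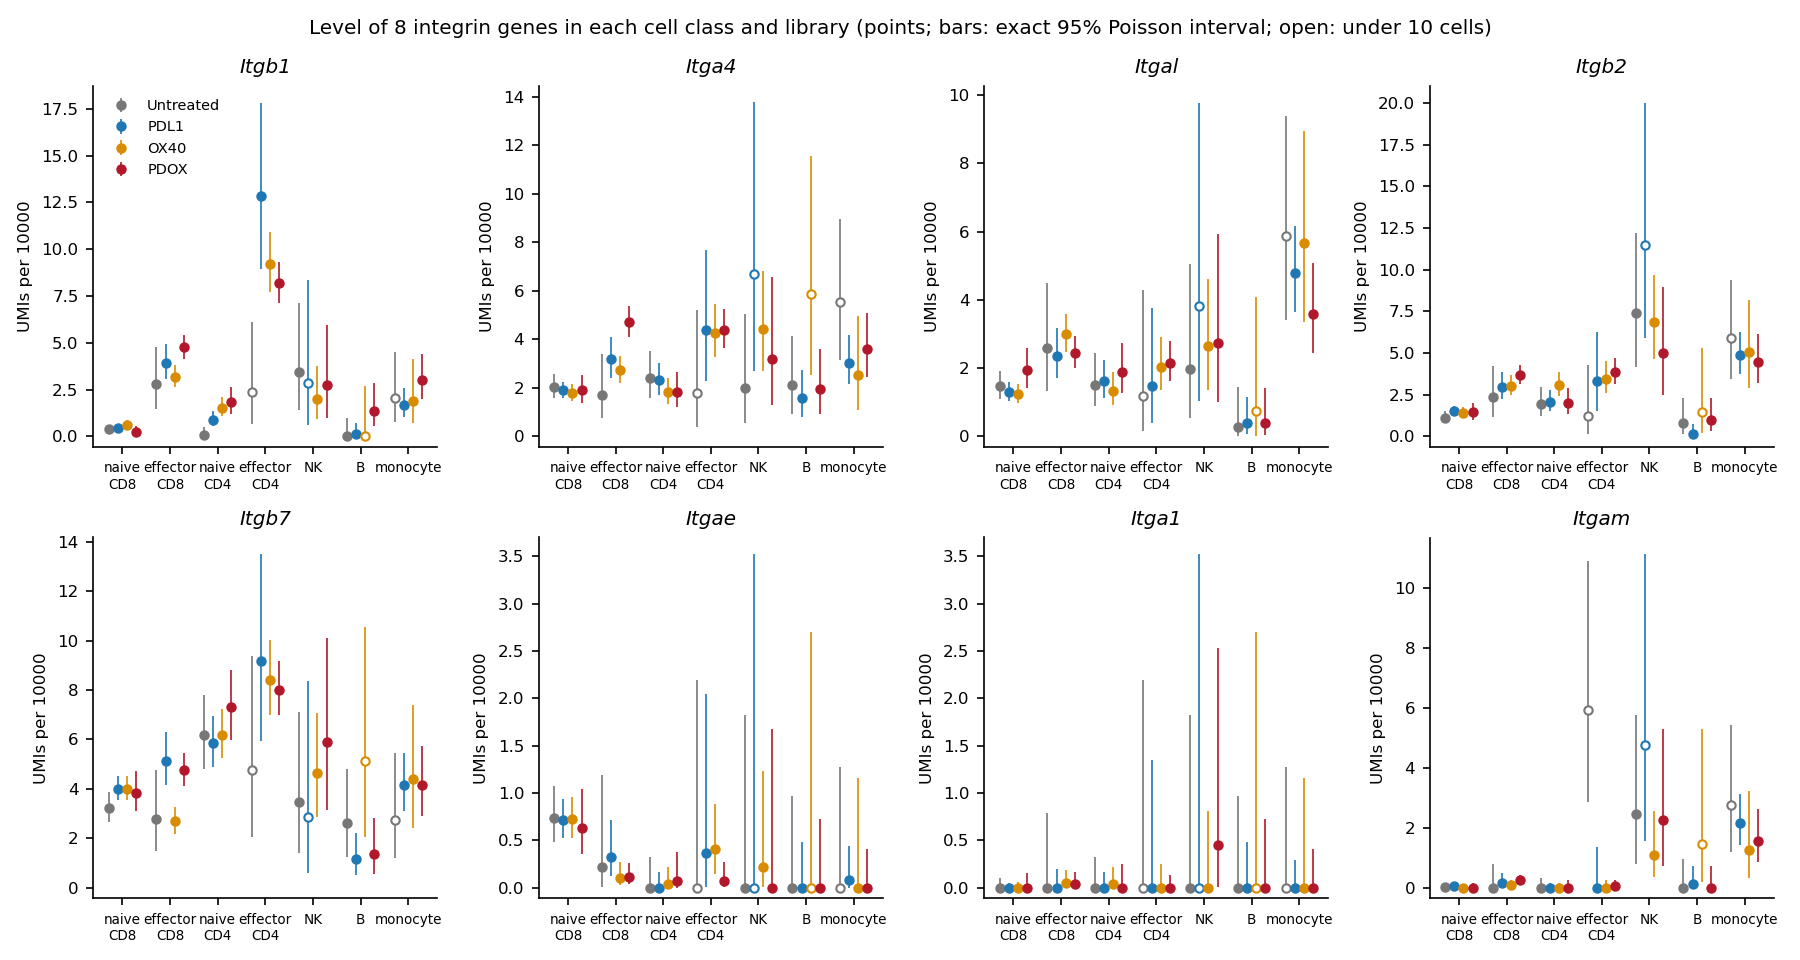
Level of each integrin subunit in UMIs per 10000 (vertical axes, each panel on its own scale) by cell class (horizontal axis), with 1 point per library. *Itgb1* sits at 0.253 to 0.630 in naive CD8 T cells and at 2.79 to 4.75 in effector CD8 T cells, while *Itgae* is above 0.6 in every library of naive CD8 T cells alone.

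Sequence just before the annotated start of the genes is shown for the chains that make up the VCAM-1 and MAdCAM-1 receptors, *Itgb1*, *Itga4* and *Itgb7*, because their levels separate naive from effector or CD8 from CD4 T cells below. The 250 bases are from the RefSeq promoter table on GRCm38.p6, read in the direction of transcription, at chr8:128685404-128685653 (plus strand), chr2:79255176-79255425 (plus strand) and chr15:102231936-102232185 (minus strand). The table's *Itgb7* start lies within the RefSeq span of the gene. Of the 8 genes, 5 had an entry. Capitals mark GGAA or its complement TTCC (the core bound by ETS factors), TGTGGT or ACCACA (a RUNX motif) and GGGCGG or CCGCCC (the GC box).
Itgb1: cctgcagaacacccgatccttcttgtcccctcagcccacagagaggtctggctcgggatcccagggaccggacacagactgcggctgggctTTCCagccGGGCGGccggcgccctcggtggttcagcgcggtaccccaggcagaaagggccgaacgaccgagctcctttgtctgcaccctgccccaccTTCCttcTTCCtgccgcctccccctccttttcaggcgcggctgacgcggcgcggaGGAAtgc
Itga4: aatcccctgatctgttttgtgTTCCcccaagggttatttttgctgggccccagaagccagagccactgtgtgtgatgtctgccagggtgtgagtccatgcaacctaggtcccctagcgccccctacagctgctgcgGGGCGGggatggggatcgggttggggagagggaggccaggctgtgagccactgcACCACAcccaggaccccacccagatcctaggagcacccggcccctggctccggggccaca
Itgb7: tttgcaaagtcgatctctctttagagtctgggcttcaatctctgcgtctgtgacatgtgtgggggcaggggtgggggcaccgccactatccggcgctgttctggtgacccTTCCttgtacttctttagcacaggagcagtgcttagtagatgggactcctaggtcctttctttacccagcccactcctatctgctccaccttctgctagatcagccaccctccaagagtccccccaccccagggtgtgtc
The *Itgb1* stretch held 4 ETS cores and 1 GC box, that of *Itga4* held 1 of each of the 3 motifs, and that of *Itgb7* held 1 ETS core. Among 32851 promoters in the table, 93.4% held an ETS core in the same 250 bases, 14.0% the RUNX motif and 32.7% the GC box.

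The first comparison asked how the subunits differ between effector and naive CD8 T cells of the same blood. *Itgb1* showed the widest separation of the genes described. Its level in naive CD8 T cells was 0.367, 0.447, 0.630 and 0.253 UMIs per 10000 in the Untreated, PDL1, OX40 and PDOX libraries, on 13, 32, 41 and 6 UMIs. In effector CD8 T cells it was 2.79, 3.94, 3.17 and 4.75 on 13, 72, 119 and 211 UMIs, higher than in naive cells in each library and with no overlap between the classes (mean 3.66 ± 0.868 against 0.424 ± 0.159, SD, n = 4 libraries). With edgeR's quasi-likelihood test on UMIs summed per library, and the library as a block, *Itgb1* was higher in effector cells by 3.03 on the log2 scale (SE 0.19, Benjamini-Hochberg adjusted p = 1.4e-19). In this comparison 15.8% of 4924 genes tested were called at an adjusted p under 0.05, 8.47% higher and 7.31% lower in effector cells. Of the 8 genes, 6 had enough UMIs for the test, 4 were called higher and 1 lower.

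The chains of LFA-1 were called as well. *Itgb2* stood at 1.10, 1.495, 1.41 and 1.43 UMIs per 10000 in naive CD8 T cells and at 2.36, 2.95, 3.04 and 3.67 in effector CD8 T cells of the Untreated, PDL1, OX40 and PDOX libraries. The classes did not overlap and the difference was 1.22 (log2, SE 0.15, edgeR adjusted p = 2.1e-09). *Itgal*, its alpha chain, was at 1.47, 1.30, 1.24 and 1.94 in naive and 2.58, 2.35, 2.98 and 2.43 in effector CD8 T cells, again without overlap, with a difference of 0.95 (log2, SE 0.16, edgeR adjusted p = 5.1e-06). Counting cells rather than UMIs, 19.2% of naive and 44.3% of effector CD8 T cells had an *Itgb2* UMI, and 18.8% and 36.3% an *Itgal* UMI.

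*Itga4* was called higher in effector CD8 T cells, but not in every library. Its level was 2.03, 1.90, 1.78 and 1.90 in naive cells and 1.72, 3.17, 2.72 and 4.71 in effector cells of the Untreated, PDL1, OX40 and PDOX libraries. The effector level was above the naive one in 3 of 4 libraries, the untreated library being the other, where the effector value rests on 8 UMIs of 26 cells. The difference was 0.87 (log2, SE 0.15, edgeR adjusted p = 1.5e-05). *Itgb7*, the other partner of *Itga4*, was at 3.22, 4.01, 4.01 and 3.84 in naive and 2.79, 5.14, 2.69 and 4.75 in effector CD8 T cells, above the naive level in the PDL1 and PDOX libraries and below it in the other two. Its difference of 0.09 was not called (log2, 95% interval -0.18 to 0.37, edgeR adjusted p = 0.73).

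*Itgae* was the gene called lower. Naive CD8 T cells held 26, 51, 47 and 15 *Itgae* UMIs in the Untreated, PDL1, OX40 and PDOX libraries, which is 0.735, 0.713, 0.722 and 0.633 per 10000. Effector CD8 T cells held 1, 6, 4 and 5, or 0.215, 0.328, 0.107 and 0.113 per 10000, below the naive level in each library. The difference was -1.99 (log2, SE 0.35, edgeR adjusted p = 1.7e-05). *Itgae* passed the filter on low counts through the naive cells, since only 1 of the 4 effector profiles reached its level, and with no filter the difference was -2.04 (edgeR adjusted p = 7.6e-07). A UMI of *Itgae* was found in 9.94% of naive and 2.26% of effector CD8 T cells.

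Effector cells were deeper, with a median of 1807 UMIs against 1610 in naive CD8 T cells. After each cell was thinned to 750 UMIs, 2.79% of naive and 23.8% of effector CD8 T cells had an *Itgb1* UMI, compared with 6.31% and 40.9% before. For *Itgae* the thinned shares were 4.53% and 0.802%. In B cells, which had a median of 1211 UMIs, an *Itgb1* UMI was found in 3.03% of cells and an *Itgae* UMI in 0 of 132, which allows a share of cells with a UMI, not of cells that express the gene, of up to 2.27%. Droplets under 200 genes stand in poorly for free RNA, since hemoglobin genes gave most UMIs of 134 of the 135. Among their 12780 UMIs were 1 of *Itgb1*, 3 of *Itga4*, 3 of *Itgb2* and 2 of *Itgb7*, and none of the other 4 genes. Those counts are 0.782, 2.35, 2.35 and 1.56 per 10000, with upper limits of 4.36, 6.86, 6.86 and 5.65. So few UMIs cannot show that the level in free RNA was low. Summed markers of NK cells, neutrophils and platelets had larger values in the effector class, and those of monocytes and B cells had smaller ones. Within the monocyte list, though, *Fcer1g* (0.0766 in naive and 0.391 in effector CD8 T cells) and *Cst3* (1.46 and 1.86) went the other way. So did *Cd79a* of the B cell list (0.0613 and 0.0667). The summed level of the 6-gene NK list was 0.0511 UMIs per 10000 in naive and 1.67 in effector CD8 T cells, where all 6 were found and *Klre1* gave 113 of 175 UMIs and *Ncr1* gave 6. The neutrophil list (*S100a8* and *S100a9*) summed to 0.0971 in naive and 0.610 in effector CD8 T cells, with both genes found in each. The platelet list summed to 0.179 in naive and 0.305 in effector CD8 T cells (35 and 32 UMIs), with its gene *Itga2b* lower in effector cells. The part of NK cells, neutrophils, platelets, monocytes and B cells in the differences above was not tested.

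The same comparison in CD4 T cells used the PDL1, OX40 and PDOX libraries, because the untreated one had too few effector cells. *Itgb1* was at 0.876, 1.54 and 1.82 UMIs per 10000 in naive and at 12.8, 9.21 and 8.17 in effector CD4 T cells of these libraries. It was higher in effector cells in each of the 3, by 2.73 (log2, SE 0.19, edgeR adjusted p = 2.2e-42), and the classes did not overlap. A UMI of *Itgb1* was found in 9.72% of naive and 65.1% of effector CD4 T cells over all libraries (5.10% and 46.7% after thinning). *Itga4* was at 2.31, 1.81 and 1.82 in naive and 4.40, 4.27 and 4.38 in effector CD4 T cells, a difference of 1.20 (log2, SE 0.21, edgeR adjusted p = 2.2e-07) with no overlap. Here 14.8% of 3176 genes were called in either direction, and 5 of the 8 integrin genes were tested. Both *Itgb1* and *Itga4* were called under each of the 15 alternatives run.

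The other tested chains were less separated in CD4 T cells. *Itgb2* stood at 2.08, 3.07 and 2.03 in naive and 3.30, 3.45 and 3.86 in effector cells of the PDL1, OX40 and PDOX libraries, a difference of 0.56 (log2, SE 0.21, edgeR adjusted p = 0.046) that was no longer called under 13 of 15 alternatives, among them leaving out the PDL1 (0.53), OX40 (0.86) or PDOX library (0.25). *Itgb7* was at 5.86, 6.19 and 7.30 in naive and 9.16, 8.40 and 8.02 in effector cells, higher in each library by 0.37 (log2, SE 0.15), which was not called (edgeR adjusted p = 0.084). Thinning gave 0.77 and gating on log1p values gave 0.58, and both were called. *Itgal* differed by 0.35 (log2, SE 0.25, edgeR adjusted p = 0.42), with 1.61, 1.34 and 1.89 in naive and 1.47, 2.03 and 2.15 in effector cells. The 6 effector CD4 T cells of the untreated library, outside the test, held 4 *Itgb1*, 3 *Itga4* and 8 *Itgb7* UMIs. The NK list summed to 0.0274 per 10000 in naive and 0.260 in effector CD4 T cells (2 and 12 UMIs), with *Ncr1*, *Klrb1c*, *Klra7* and *Klra8* at 0 in the effector cells. The neutrophil list summed to 0.110 and 1.02. The platelet list summed to 0.205 and 0.282 (15 and 13 UMIs), with its gene *Ppbp* lower in effector cells, and the sums of the monocyte and B cell lists were lower there. Of the monocyte list, *Fcer1g* (0.0411 in naive and 0.239 in effector CD4 T cells), *Cst3* (1.05 and 2.17) and *Csf1r* (0.0137 and 0.0217) were higher in effector cells. Of the B cell list, *Cd79b* (0.0137 and 0.0868) and *Ebf1* (0 and 0.0217) were. The part of NK cells, neutrophils, platelets, monocytes and B cells in the CD4 differences was not tested.

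Whether the effector-to-naive difference itself differed between CD8 and CD4 T cells was tested as an interaction over the PDL1, OX40 and PDOX libraries, where 0.655% of 4583 genes were called. *Itgae* was called, since its effector minus naive difference was lower in CD8 than in CD4 T cells (difference of differences -4.68, log2, SE 1.06, edgeR adjusted p = 0.012). CD4 T cells entered this test with 2 *Itgae* UMIs in naive and 9 in effector cells, the gene passed the filter on low counts through naive CD8 T cells alone, and the call was lost under 5 of 14 alternatives, namely with DESeq2, without the block, without the PDL1 library (-4.44), without the OX40 library (-3.68), and with stricter limits on naive and effector cells (-7.77). Without the PDOX library the value was -5.86. For *Itgb1* the difference between lineages was 0.38 (95% interval -0.21 to 0.97, edgeR adjusted p = 0.84), for *Itgb2* 0.68 (edgeR adjusted p = 0.28) and for *Itgal* 0.61 (edgeR adjusted p = 0.52). Those of *Itga4* (-0.08) and *Itgb7* (-0.27) were not called either.

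Naive CD8 and naive CD4 T cells were compared next, over 4 libraries, with 9.88% of 3876 genes called. *Itgae* lay mostly on the CD8 side, with 139 UMIs in 1237 naive CD8 T cells and 2 UMIs in 494 naive CD4 T cells, 1 in the OX40 and 1 in the PDOX library. It was higher in naive CD8 T cells by 4.55 (log2, SE 0.55, edgeR adjusted p = 1.3e-14) in 4 of 4 libraries, and by 5.19 without the PDOX library. It passed the filter on low counts through the naive CD8 profiles alone, and with no filter the difference was 4.59 (edgeR adjusted p = 7.5e-15). With stricter limits on the naive call there were 68 *Itgae* UMIs in 570 naive CD8 T cells and none in 221 naive CD4 T cells. *Itgb7*, its beta chain, went the other way and was lower in naive CD8 T cells (log2 difference of CD8 minus CD4 -0.67, SE 0.10, edgeR adjusted p = 1.3e-10), at 3.22, 4.01, 4.01 and 3.84 against 6.16, 5.86, 6.19 and 7.30 in naive CD4 T cells of the Untreated, PDL1, OX40 and PDOX libraries, without overlap. Over all kept cells, 63.9% of the 255 *Itgae* UMIs lay in the CD8 gate and 4.31% in the CD4 gate.

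The remaining chains split between the naive lineages. *Itgb2* was at 1.965, 2.08, 3.07 and 2.03 in naive CD4 T cells, above the naive CD8 levels given before in each library, and the log2 difference of CD8 minus CD4 was -0.74 (SE 0.15, edgeR adjusted p = 2.9e-05). This call was lost with DESeq2 and without the OX40 library (-0.52). *Itgb1* was also lower in naive CD8 T cells (log2 difference -1.22, SE 0.23, edgeR adjusted p = 4.8e-06), in 3 of 4 libraries, and was not called with DESeq2 or without the block. In naive CD4 T cells its level differed widely between libraries, with 1, 19, 39 and 27 UMIs or 0.0893, 0.876, 1.54 and 1.82 per 10000 in the Untreated, PDL1, OX40 and PDOX libraries. With the stricter limits these became 0, 2, 5 and 10 UMIs, or 0, 0.219, 0.505 and 1.51 per 10000. Naive CD8 T cells then held 6, 13, 8 and 2 *Itgb1* UMIs, or 0.331, 0.389, 0.324 and 0.182 per 10000. So under those limits the CD8 level lay below the CD4 level in the OX40 and PDOX libraries only, and above it in the Untreated and PDL1 libraries. *Itga4* (-0.10, edgeR adjusted p = 0.78) and *Itgal* (-0.09, edgeR adjusted p = 0.83) did not pass the test.

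**Figure D2:**
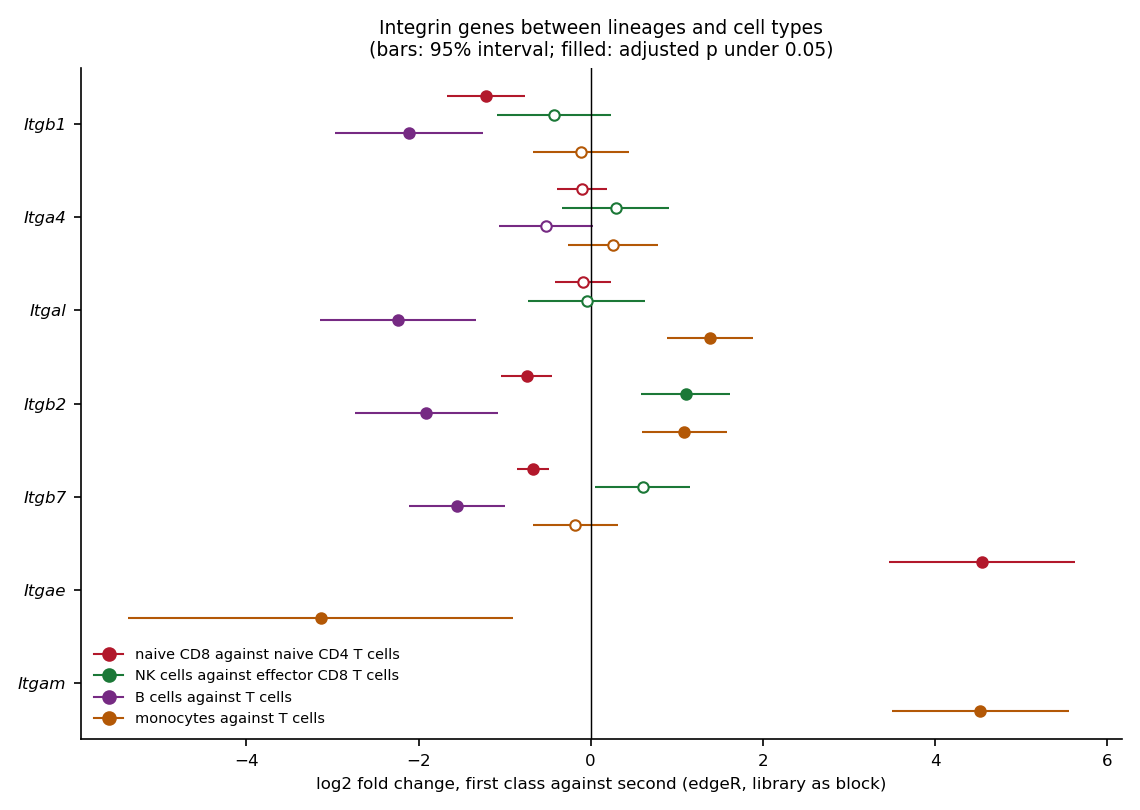
Log2 differences (horizontal axis, with 95% intervals) of the integrin genes tested in naive CD8 against naive CD4 T cells, NK against effector CD8 T cells, B against T cells and monocytes against T cells. *Itgae* stands at 4.55 for the naive lineages and *Itgam* at 4.53 for the monocytes, both of which passed the filter on low counts only through the class where they are higher, and the B cell values of *Itgal*, *Itgb1*, *Itgb2* and *Itgb7* lie between -2.24 and -1.55.

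Other leukocytes that remained after purification gave further reference points. NK cells, with the 28, 13 and 13 cells of the OX40, PDOX and Untreated libraries, were set against effector CD8 T cells of the same libraries, and 18.7% of only 722 genes tested were called. *Itgb2* was at 7.40, 6.83 and 4.99 UMIs per 10000 in NK cells of the Untreated, OX40 and PDOX libraries and at 2.36, 3.04 and 3.67 in effector CD8 T cells, higher in each by 1.10 (log2, SE 0.26, edgeR adjusted p = 0.0014), and the call was lost with DESeq2, with no filter on low counts (0.68), without the untreated library (0.86) and without the OX40 library (0.97). *Itgb7* (0.60, edgeR adjusted p = 0.14), *Itgb1* (-0.43), *Itga4* (0.29) and *Itgal* (-0.05) did not pass. *Itgam* had 5 UMIs in NK cells of each of the 4 libraries and was found in 27.1% of them, compared with 2.07% of effector CD8 T cells, but its counts were too low for the test.

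B cells had the lowest levels of most subunits. Against all gated T cells of the Untreated, PDL1 and PDOX libraries, with 15.7% of 4726 genes called, *Itgal* was lower in B cells with a log2 difference of -2.24 (SE 0.46, edgeR adjusted p = 0.00047). *Itgb1* was lower as well (-2.11, SE 0.44, edgeR adjusted p = 0.00052), as were *Itgb2* (-1.91, SE 0.42, edgeR adjusted p = 0.0011) and *Itgb7* (-1.55, SE 0.28, edgeR adjusted p = 0.00010). Each of the 4 was lower in 3 of 3 libraries. The first 3 passed the filter on low counts through the T cells, as 1 or 2 of the 3 B cell profiles reached its level. *Itga4* was at 2.095, 1.56 and 1.96 UMIs per 10000 in these B cells and its difference of -0.52 was not called (edgeR adjusted p = 0.25). The 8 *Itgb1* UMIs of B cells lay in the PDL1 (1) and PDOX (7) libraries, and in the PDOX library the platelet list of the B cells summed to 31.4 per 10000 against at most 4.97 in the B cells of other libraries; what platelets add to that value was not tested. Without the PDL1 library, which held 57 of the B cells, *Itgb1* (-1.78), *Itgb2* (-1.36) and *Itgb7* (-1.34) were not called, and without the PDOX library *Itgb1* differed by -3.66.

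Monocytes were compared with T cells in the PDL1, OX40 and PDOX libraries, with 23% of 6813 genes called. *Itgam* was at 2.15, 1.26 and 1.57 UMIs per 10000 in these monocytes, and its tested identifier had 41 UMIs in them and 24 in all T cells of the same libraries. It passed the filter on low counts only through the monocytes, and its log2 difference of 4.53 (SE 0.53) was 4.36 with no filter (edgeR adjusted p = 7.0e-15) and 5.14 without the PDOX library. *Itgal* was at 4.78, 5.66 and 3.59 (log2 difference 1.38, SE 0.25, edgeR adjusted p = 7.1e-07) and *Itgb2* at 4.86, 5.03 and 4.49 (1.09, SE 0.25, edgeR adjusted p = 0.00014), each higher than in T cells of the same library. The call of *Itgb2* was lost without the PDL1 library (0.75). *Itgae*, with 1 UMI in 93 monocytes and past the filter only through T cells, differed by -3.13 (log2, SE 1.14, edgeR adjusted p = 0.030), which 5 of 10 alternatives did not call, among them leaving out the PDL1 (-7.20), OX40 (-2.89) or PDOX library (-2.84). *Itgb1* (-0.12), *Itga4* (0.26) and *Itgb7* (-0.18) did not pass the test.

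*Itga1* was too rare to compare. It had 27 UMIs in all kept cells, 4 of them in effector CD8 T cells (2 in the OX40 and 2 in the PDOX library), 1 in a naive CD4 T cell, 1 in an NK cell and 21 in cells that met no gate. None was found in 1237 naive CD8 T cells, which allows a share of cells with a UMI of up to 0.243%. Each of the 4 effector CD8 T cells with an *Itga1* UMI also had an *Itgb1* UMI, compared with 40.4% of the others, at medians of 2522.5 and 1800 UMIs. Neither the naive CD4 T cell nor the NK cell with an *Itga1* UMI had an *Itgb1* UMI. These cells are too few to describe pairing. *Itgam* in T cells was likewise scarce, with 5 UMIs in naive and 18 in effector CD8 T cells, and 10 of the 12 UMIs in effector CD4 T cells came from 1 cell of the untreated library.

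Partner chains were counted in the same cells, as a description, since a deep cell is likelier to show both. *Itga4* and *Itgb1* UMIs met in 19.4% of effector CD8 T cells, where the product of their shares is 17.2%, and in 29.8% of effector CD4 T cells, where it is 29.9%. *Itgal* and *Itgb2* met in 19.0% of effector CD8 T cells (product 16.1%) and in 5.09% of naive ones (product 3.59%). Of the naive CD8 T cells with an *Itgae* UMI, 50.4% had an *Itgb7* UMI, compared with 41.1% of the others, and the median cell of these groups held 1726 and 1597 UMIs. Of the monocytes with *Itgam*, 77.8% had *Itgb2* against 56.1% of the others, at medians of 3465.5 and 1844 UMIs. Cells with an alpha chain UMI were deeper in each of these pairs, so the excess over the product of shares cannot be told apart from depth.

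Effector CD8 T cells with and without an *Itgb1* UMI were then compared within the PDL1, OX40 and PDOX libraries (35, 61 and 115 cells with, 37, 134 and 123 without). Only 0.214% of 2808 genes were called (3 higher and 3 lower, against 107 and 134 at an unadjusted p under 0.05), and none of the 4 integrin genes tested was among them. *Itgb7* was at 6.02, 4.17 and 5.63 UMIs per 10000 in cells with *Itgb1* and at 3.93, 1.82 and 3.80 in cells without, in the same order in each library and without overlap, but its log2 difference of 0.71 was not called (SE 0.17, edgeR adjusted p = 0.16). It was called with no filter on low counts (0.72), with lineage by log1p values (0.68) and without the PDOX library (0.87). *Itga4* (-0.06), *Itgal* (-0.11) and *Itgb2* (0.04) differed by less. Cells with *Itgb1* had a median of 2017 UMIs and those without 1685. In effector CD4 T cells, where the OX40 and PDOX libraries allowed the same comparison and 0.113% of 1776 genes were called, no integrin gene was called.

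Between libraries, each gate was compared with the untreated one as a ratio of levels, with an exact interval that covers counting error only. In CD8 T cells *Itgb1* was at 0.632, 1.16, 1.54 and 3.14 UMIs per 10000 in the Untreated, PDL1, OX40 and PDOX libraries. These are ratios to untreated of 1.84 (1.19 to 2.94), 2.43 (1.60 to 3.83) and 4.97 (3.30 to 7.78). A ratio of at least 1.5 on 50 or more UMIs was found for 5.9%, 6.55% and 9.16% of genes in these CD8 comparisons. *Itgb2* passed that ratio in the OX40 (1.58) and PDOX libraries (2.25, interval 1.65 to 3.11) and *Itga4* in the PDOX library (1.83, 1.43 to 2.37), while *Itgb7* (1.46, 1.18 to 1.81) and *Itgal* (1.37, 1.02 to 1.86) stayed under it. *Itgae* was at 0.657, 0.674, 0.512 and 0.284, a PDOX ratio of 0.433 (0.230 to 0.801) on 47 UMIs, under the minimum for a call.

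In CD4 T cells *Itgb1* was at 0.388, 2.41, 4.51 and 5.90, and since the untreated value rests on 5 UMIs its ratios of 6.22 (2.52 to 19.8), 11.6 (4.89 to 36.2) and 15.2 (6.43 to 47.2) are wide. Ratios of at least 1.5 were found for 9.43%, 12.4% and 17% of genes in the PDL1, OX40 and PDOX comparisons of CD4 T cells. *Itgb2* was at 1.86, 2.18, 3.19 and 3.18, a ratio of 1.71 in both the OX40 and PDOX libraries. *Itga4* (1.48), *Itgal* (1.42) and *Itgb7* (1.31) stayed below 1.5 in the PDOX library. When the mitochondrial, ribosomal and hemoglobin genes were kept in the totals, every PDOX ratio shifted by 1.18-fold in CD8 and 1.12-fold in CD4 T cells, and 9 rather than 5 of the PDOX ratios reached 1.5. The shift applies to all genes alike and no share over all genes is given under that scaling, so the rise is not a result about integrins.

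Because the libraries differ in their share of effector cells, the levels were also computed at the untreated shares of naive and effector UMIs. Effector cells gave 11.6%, 20.3%, 36.6% and 65.2% of the naive and effector CD8 UMIs in the Untreated, PDL1, OX40 and PDOX libraries. The CD8 level of *Itgb1* was 0.649, 1.16, 1.56 and 3.19 as measured and 0.649, 0.853, 0.926 and 0.776 at untreated shares. For *Itgb2* the measured levels were 1.25, 1.79, 2.01 and 2.89 and the standardised ones 1.25, 1.67, 1.60 and 1.69. For *Itga4* they were 1.998, 2.16, 2.12 and 3.73 against 1.998, 2.05, 1.89 and 2.23, and for *Itgae* 0.674, 0.634, 0.497 and 0.294 against 0.674, 0.668, 0.651 and 0.573. In each case the standardised PDOX value lay closer to the untreated one. These genes were all called between effector and naive CD8 T cells of the same libraries, so this shift follows largely from the reweighting. Why the libraries differ was not tested.

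In CD4 T cells the standardised *Itgb1* levels stayed apart from the untreated one, at 0.388, 2.44, 2.54 and 2.65 compared with 0.388, 2.21, 4.36 and 5.92 as measured. Both untreated classes are thin there, with 1 naive and 4 effector UMIs. Within effector CD8 T cells the ratio of *Itga4* in the PDOX library was 2.74 (1.37 to 6.43) against 8 untreated UMIs, in a comparison where 22.3% of genes reached 1.5. *Itgb1* and *Itgb7* (both 1.70, 0.974 to 3.25) and *Itgb2* (1.55, 0.846 to 3.18) reached 1.5 there as well, and *Itgal* (0.944) did not. The naive CD4 ratios of *Itgb1* were 17.2 (2.91 to 697) and 20.4 (3.37 to 836) in the OX40 and PDOX libraries against 1 untreated UMI.

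**Figure D3:**
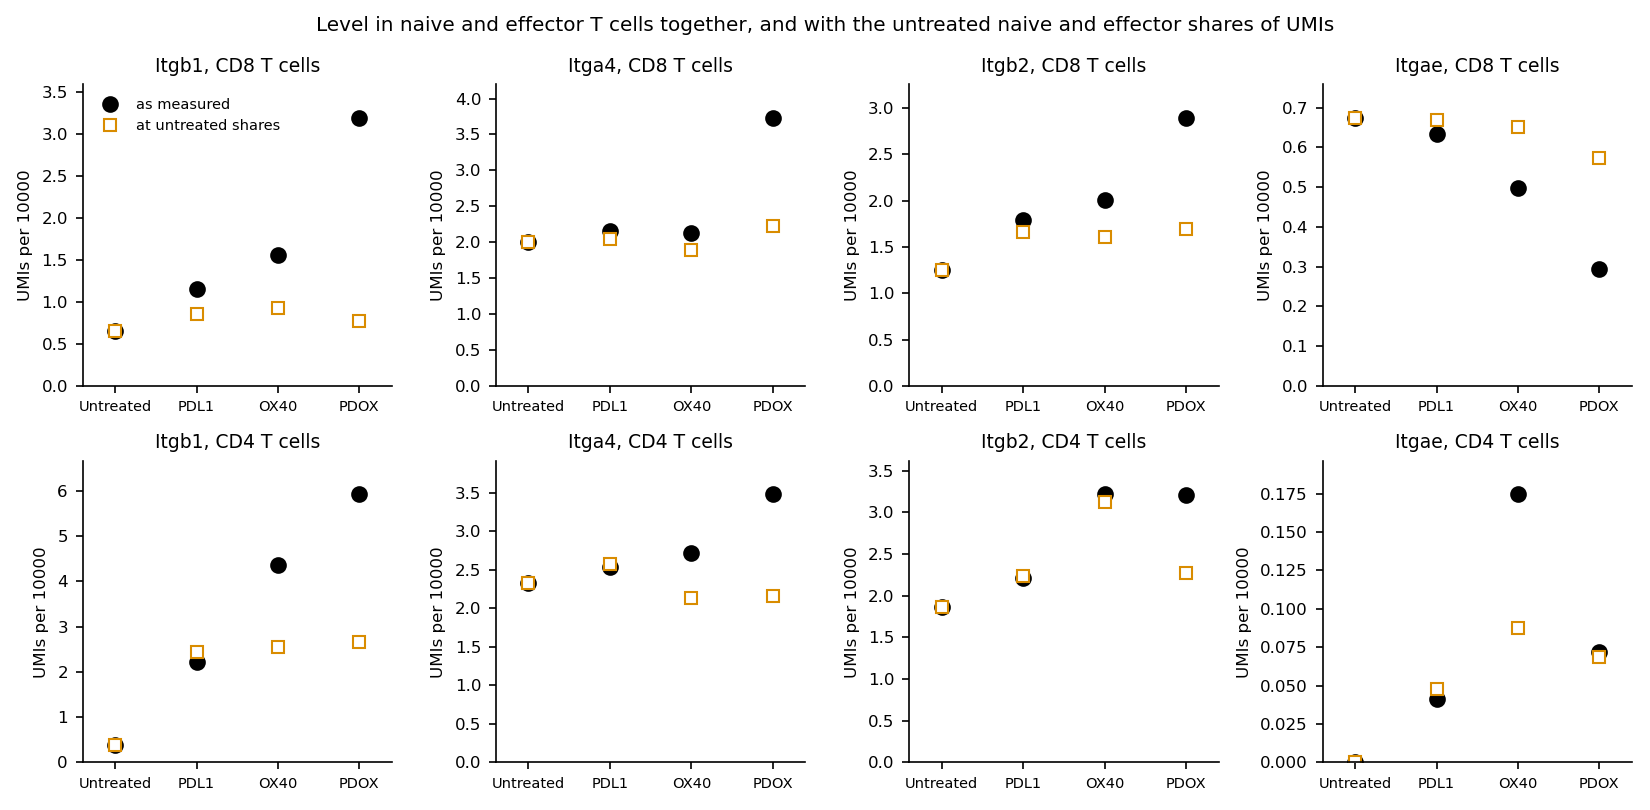
Levels (UMIs per 10000, vertical axes) of the integrin genes in naive plus effector T cells by library, as measured and at the naive and effector shares of the untreated library. In CD8 T cells *Itgb1* reaches 3.19 in the PDOX library as measured and 0.776 at untreated shares.

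Proteins that switch integrins on or tie them to actin were examined with a list of 27 genes. Of 22 tested between effector and naive CD8 T cells, 6 were called higher and 2 lower, where 8.47% and 7.31% of all genes were, with a median log2 difference of 0.22 against -0.01 over all genes tested. *Zyx*, a focal adhesion protein, rose by 1.32 (log2, edgeR adjusted p = 2.6e-10), *Rap1b*, a small GTPase that activates integrins, by 0.77 (edgeR adjusted p = 1.6e-05) and *Tln1*, the talin that binds beta chain tails, by 0.50 (edgeR adjusted p = 0.011), a call lost under 7 of 15 alternatives, without the OX40 or PDOX library among them. *Rasgrp1*, an exchange factor for Ras downstream of the antigen receptor, fell by 0.76 and *Cytip*, a partner of cytohesin, fell by 0.46. Without the PDOX library neither was called (-0.59 and -0.28). In CD4 T cells 3 of 20 were called higher and 2 lower, where 14.8% of all genes were called in either direction, at a median of 0.07. They were *Zyx* (1.96), *Rap1b* (0.68) and *Tln1* (0.63, lost under 13 of 15 alternatives), with *Cytip* (-0.92) and *Rasgrp1* (-0.89) lower. Without the OX40 library *Zyx* alone of these was still called. None of 22 differed between the lineages in the interaction test. Between the naive lineages, *Zyx* was higher in CD8 (1.08) and 6 of 22 were lower, with 9.88% of all genes called in either direction. Among the lower ones were *Cytip* (-0.61), *Flna* (-0.68) and *Fyb* (-0.37). The calls of *Flna* and *Fyb* were lost without the OX40 library (-0.49 and -0.30).

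Outside the T cells, *Rap1b* was higher in NK than in effector CD8 T cells (0.87, lost under 6 of 14 alternatives). B cells were lower in *Skap1* (-4.92), *Fyb* (-3.02) and *Apbb1ip* (-0.97, lost under 4 of 11 alternatives), adaptors that link receptors to Rap1 and talin, with no listed gene higher among 22 tested, where 15.7% of all genes were called. *Fyb* stood at -4.43 without the PDOX library. Monocytes, where 23% of all genes were called in either direction, had 7 of 23 listed genes higher, led by *Rap1a* (1.44), *Flna* (1.40) and *Rap1b* (1.06), and 4 lower, led by *Skap1* (-4.16), *Cyth1* (-2.25) and *Rasgrp1* (-2.02). *Rasgrp1* was not called without the PDL1 library (-1.40) and stood at -3.11 without the PDOX library. Of 18 further integrin subunits, *Itga6*, a chain of laminin receptors, was the one tested in T cells. It was lower in effector than naive CD4 T cells (log2 difference -2.03, edgeR adjusted p = 0.00051, not called without the OX40 library at -1.64 and -3.05 without the PDOX library), not called in CD8 T cells (-0.65), and lower in naive CD8 than naive CD4 T cells (-0.72, edgeR adjusted p = 0.011, lost under 7 of 14 alternatives). Monocytes were higher in *Itgax* (2.22) and *Itgav* (1.67) and lower in *Itga6* (-2.63), and without the PDL1 library none of the 3 was called (1.57, 1.35 and -2.54). *Itgax* stood at 3.15 without the PDOX library. Of 13 ligand genes, *Icam2* was lower in effector CD8 T cells (-0.65, edgeR adjusted p = 0.030, lost under 6 of 15 alternatives) and *Fn1*, fibronectin, was higher in monocytes (8.17, and 9.67 without the PDOX library).

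**Figure D4:**
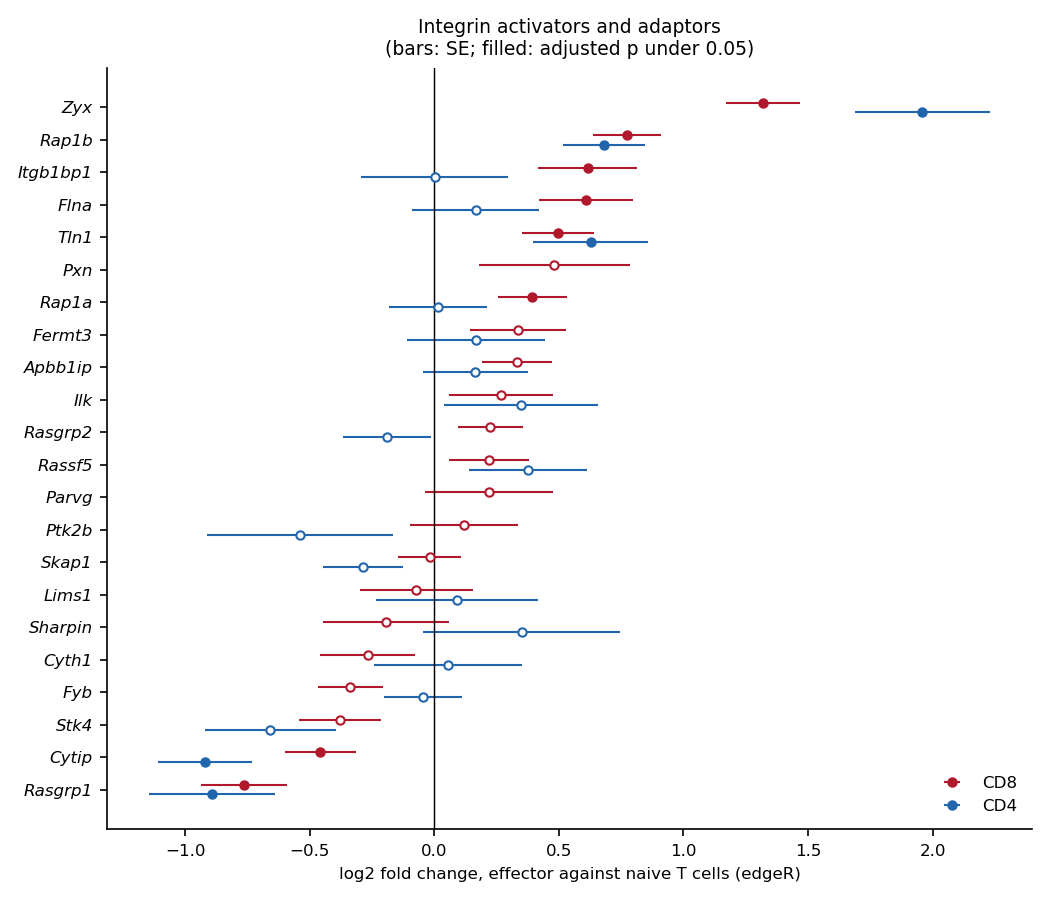
Log2 difference between effector and naive T cells (horizontal axis) of the activators and adaptors of integrins tested in CD8 and CD4 T cells, with calls at an adjusted p under 0.05 marked. *Zyx* lies at 1.32 in CD8 and 1.96 in CD4 T cells, while *Rasgrp1* and *Cytip* lie below 0 in both.

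The genes whose levels followed a subunit most closely over 24 profiles of class and library, among 3668 genes with at least 200 UMIs, are given as a description, since the profiles share libraries and depth. *Itgb1* was most like *Glrx* (Pearson's r = 0.88), *Capn2* (0.82) and *Actg1* (0.81), and *Itga4* most like *Capns1* (0.86), the small subunit of the calpains of which *Capn2* is a catalytic one, *Laptm5* (0.82) and *Cd48* (0.77). Both LFA-1 chains had *Spn*, the sialoglycoprotein CD43, as the nearest gene, at 0.90 for *Itgal* and 0.87 for *Itgb2*. *Itgb7* was nearest to *Eno1* (0.87), and *Itgae* to *Gm43698* (0.80), *5730508B09Rik* (0.79) and *B4galnt1* (0.78). *Itgam* was nearest to *Nabp1* (0.87). *Itgae* and *Itgam* had 168 and 86 UMIs in the profiles, under the 200 asked of the other genes, so their likeness rests on few UMIs. For *Itga1*, with 6 UMIs in the profiles, no likeness is given.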

How the data were processed

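Blood T cells were captured with the 10x Chromium Single Cell 3′ v2 chemistry. Per the study, Cell Ranger 2.1.1 made the deposited UMI counts on mm10, and the submitters' notes name Seurat version 2; counts are raw, with no filter or normalization by the authors beyond cell calling. Cells with at least 200 genes were kept and no doublets were removed; Scrublet scores served as an alternative. UMIs were summed per library and class (at least 10 cells each), genes used for gating were left out, and edgeR 4.0.16 in R 4.3.3 was run with TMM factors, filterByExpr, the library as a block (both classes come from the same library, which is the pairing) and Benjamini-Hochberg adjustment. DESeq2 1.42.0, other scalings, filters, gates, thinning to 750 UMIs and leaving out each library were alternatives. The libraries stand for 4 treatments, so treatments and mice are mixed in the spread of a difference. The edgeR test moderates the variance of each gene toward a value shared over genes. A very small p-value from so few libraries is therefore not a measure of how closely they agreed for that gene. Treated and untreated libraries were compared by ratios without a test. Intervals are 95%, exact Poisson for levels, Clopper-Pearson for shares and conditional binomial for ratios. Those of log2 differences are normal intervals from the edgeR SE. A count of 0 allows 3 UMIs or cells. Intervals of levels, shares and ratios, and the limits, cover counting error only. The script was tested on simulated data. The genes, lists and gates were chosen with earlier results of these data known. All 8 integrin genes are named, and of each list the called genes, at most 3 per direction by p. Not every gene of the naive list is reported here.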

Additional observations from a re-analysis of the deposited data

Results flagged for a closer look

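In the test of the interaction, *Itgae* changed differently between naive and effector cells in the CD8 and CD4 lineages. Its effector minus naive difference was lower in CD8 than in CD4 T cells, with an interaction of -4.68 (log2, SE 1.06, edgeR adjusted p = 0.012). Naive CD4 T cells held 2 and effector CD4 T cells 9 *Itgae* UMIs, and the gene passed the filter on low counts through naive CD8 T cells alone. The call was lost under 5 of 14 alternatives, among them without the PDL1 library (-4.44, edgeR adjusted p = 0.078) and without the OX40 library (-3.68, edgeR adjusted p = 0.59).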

How the results depend on the processing

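Every gene named was refitted under each alternative that its comparison allowed, in the order effector against naive CD8, effector against naive CD4, the interaction, naive CD8 against naive CD4, NK against effector CD8, B against T, monocytes against T, and *Itgb1*+ against *Itgb1*- effector CD8 and CD4 cells. Genes called numbered 777, 469, 30, 383, 135, 744, 1567, 6 and 2. DESeq2 called 338, 152, 5, 108, 71, 394, 918, 2 and 0. Thinning each cell to 750 UMIs gave 319, 201, 16, 180, 68, 421, 565, 1 and 0. Stricter limits on naive and effector cells gave 219 for CD4, 7 for the interaction, 161 for the naive lineages and 4 for the *Itgb1* split of CD4. Naive and effector calls by 2 genes each gave 16 for the interaction, 89 for NK cells and 34 and 4 for the *Itgb1* splits. No filter on low counts gave 228 for NK cells and 85 and 7 for the splits, and keeping the mitochondrial, ribosomal and hemoglobin genes gave 231 for NK cells. Without the top 5% of Scrublet scores the splits gave 12 and 5, without cells above 2900 genes 14 for CD8, with lineage by log1p above 1 they gave 41 and 5, and without Foxp3+ cells 4 for CD4. Leaving out a library gave 475 to 928, 157 to 532, 15 to 18, 280 to 338, 64 to 174, 329 to 726, 777 to 1367 and 17 to 32. The lowest of these came without the OX40 library for both effector comparisons and NK cells (475, 157 and 64) and without the PDL1 library for B cells and monocytes (329 and 777), and leaving out the PDOX library gave 480 and 237 for the effector comparisons and 1014 for monocytes. It was not run for the CD4 split, which would leave 1 library. The cause of these shifts was not tested. Of the PDOX ratios, 9 rather than 5 reached 1.5 with all genes kept, a scaling that shifts every gene and for which no share over all genes is given. The share of cells with a UMI was higher in the PDOX than in the untreated library for 13 of the 16 pairs of gene and T cell gate, and for 12 after thinning. No such count over all genes is given, so this is not a result about integrins. The PDOX cells were also deeper, with medians of 1637 against 1469.5 UMIs in CD8 and 1638 against 1374 in CD4 T cells.

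Without the replicate block, that is without pairing the classes of a library, 4 genes were called for the interaction, 156 for the naive lineages, 74 for NK cells and 0 and 1 for the *Itgb1* splits. Losing the block ended the calls of *Itgae* in the interaction and in monocytes, of *Itgb1* between the naive lineages and in B cells, and of *Itgb2* between effector and naive CD4 T cells.

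Of 22 calls among 48 tests of the integrin genes, 12 held under every alternative run, and of 31 calls named from the lists 11 did. Signs turned only where no call was made. *Itga4* gave 0.0832 (thinned), 0.0807 (stricter limits) and 0.39 (2 genes each) in the interaction, 0.0010 (thinned) between the naive lineages, -0.17 (no filter) in NK cells and 0.43 (thinned) in the CD8 split. *Itgal* gave 0.0472 (all genes kept) and 0.0360 (log1p lineage) in NK cells and 0.24 (thinned) in the CD8 split. *Itgb2* gave -0.00249 (stricter limits), -0.18 (2 genes each) and -0.0191 (log1p lineage) in the CD8 split and -0.46 (thinned) and -0.00573 (log1p lineage) in the CD4 split. *Itgb7* gave 0.0846 (no filter), 0.40 (thinned), 0.00531 (2 genes each) and 0.0230 (log1p lineage) in the CD4 split. Leaving out a library moved *Itgb7* from -0.0614 to 0.35 between effector and naive CD8 T cells, *Itgb1* from -0.20 to 0.73, *Itga4* from -0.32 to 0.14 and *Itgb7* from -0.55 to 0.0492 in the interaction, *Itga4* from -0.29 to 0.62 in NK cells, *Itgb1* from -0.43 to 0.11 in monocytes, and *Itgal* from -0.20 to 0.0524 and *Itgb2* from -0.0453 to 0.18 in the CD8 split.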

Other observations

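Cells that met no gate carried much of the signal of these genes. The 2399 of them held 52.2% of the *Itgb1*, 51.7% of the *Itgb7*, 49.6% of the *Itgb2*, 46.3% of the *Itga4*, 44.9% of the *Itgal* and 31.0% of the *Itgae* UMIs. For *Itga1* it was 21 of 27 UMIs and for *Itgam* 184 of 295. The 1638 of these cells with *Cd3* UMIs but no *Cd4* or *Cd8* UMI had *Itgb1* at 2.36 and *Itgb7* at 5.35 UMIs per 10000. A group of 45 ungated cells with 20 or more UMIs of neutrophil genes and no *Cd3* UMI had *Itgam* at 1.75 and *Itgal* at 2.81 per 10000. In 8 ungated cells with platelet genes, *Itgb1* was at 11.3 per 10000 on 8 UMIs, with no *Itga4*, *Itgal* or *Itgb7* UMI.

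Among CD4 T cells, 22 had a UMI of *Foxp3*, the factor that marks regulatory T cells. Of these, 90.9% had an *Itgb7* UMI, at a level of 12.3 per 10000, compared with 8.09 in effector and 6.31 in naive CD4 T cells. The groups are not separate, since 17 of the 22 are among the effector CD4 T cells. By library the level was 14.1, 5.34, 12.9 and 12.2 in the Untreated, PDL1, OX40 and PDOX libraries, on 5, 1, 22 and 23 UMIs of 2, 1, 8 and 11 cells. *Itgb1* was at 3.86 and *Itga4* at 5.55 per 10000 in the same cells. With 51 *Itgb7* UMIs in all, these values are a description of few cells.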
